A study of Mus musculus with 6 samples.

Results

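The collagens, laminins, fibronectin, nidogens, perlecan and integrins form the basement membrane of a heart muscle cell and its grip on it. They were followed here in HL-1 cells, a line derived from an atrial tumour of a mouse that carried a viral T antigen under the promoter of atrial natriuretic factor. Genes were taken by symbol: every collagen chain, laminin subunit and integrin subunit, together with Fn1, Nid1, Nid2, Hspg2, Sparc and Vtn. The rule found 90 genes among the 32739 of the files, and 43 of them had enough reads to be tested. By symbol it also takes Itgb3bp, which encodes a centromere protein, and Itgbl1, which encodes no integrin subunit. All 6 libraries came from HL-1 cells grown in Claycomb medium, kept hypoxic for 6 h and then reoxygenated for 1 h, per the series design, while the description of each library reads ReOx7h. In 3 of them the medium held 5 µM of BRL37344 (BRL below), an agonist of the β3-adrenergic receptor, and in the other 3 it held vehicle. No source used here says when the agonist was added relative to hypoxia. HL-1 is a single cell line that divides in culture, and the labels do not say whether each library stands for its own culture. A p-value here sets a difference against the spread among these libraries only, which may be technical.

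Basement membranes are sheets of extracellular matrix in which a network of laminin and a network of collagen IV are joined by nidogen and perlecan. Integrins are receptors of an α and a β subunit that span the membrane and tie this matrix to the cytoskeleton. In the heart, cardiomyocytes contribute basement membrane components, while fibroblasts make most of the fibrillar collagen. Fibronectin is a matrix protein that many cells lay down after injury and that integrins bind through its RGD motif.

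Total expected counts ranged from 4440168 to 5060049 in vehicle and from 6812810 to 8332472 in BRL, so depth did not overlap between the groups. CPM below are counts scaled to a common library size with the TMM factors of edgeR. A count of 0 allows up to 3 counts, which correspond to 0.360 to 0.676 CPM by the library total, without TMM factors. BRL replicate 1 stood apart from the other libraries. Mitochondrially encoded transcripts took 5.03% of its counts and between 16.54% and 21.9% in the other 5 (Wilson 95% intervals no wider than 0.071 percentage points, which cover counting error only). All 12 cardiomyocyte markers of a fixed list, Myh6, Tnnt2 and Nppa among them, were detected and tested, and the list summed to 6782 to 7537 CPM in vehicle and 4185 to 5337 CPM with BRL. Most of that difference lay in Myh6, at 3002, 3404 and 3602 CPM in vehicle and 979.1, 1398 and 1611 CPM with BRL, while Tnnt2 and Nppa overlapped between the groups and every BRL library lay above for Tnni3. Ttn and Mybpc3 also lay below in every BRL library. Of the 12, edgeR called 2 lower, Myh6 (adjusted p = 0.0117) and Mybpc3 (adjusted p = 0.0129). It called 0 higher, against 1.79% of all tested genes lower and 1.01% higher. Every BRL library lay below in 3 and above in 1, against 15.5% and 16.0% of all tested genes. The list's median log2 fold change was −0.12. Of 12 fibroblast markers Tcf21, Dcn, Lum, Thy1 and Twist1 had no counts in any library. The fibroblast list summed to 53.4 to 72.8 CPM in vehicle and 53.7 to 55.3 CPM with BRL, most of it from Wt1, Dpep1 and Gsn. Of the endothelial list Emcn and Cldn5 had no counts, and its sum was 30.0 to 37.0 CPM in vehicle and 68.4 to 111 CPM with BRL, where Kdr and Egfl7 made up most of it. Of 10 smooth muscle markers 5 were tested, Kcnj8 had no counts, and the sum, mostly Acta2, was 3384 to 3782 CPM in vehicle and 1518 to 2979 CPM with BRL. The part of these marker lists in the results that follow was not tested. In bulk RNA, fewer cells of a type and less RNA per cell cannot be told apart.

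**Figure D1:**
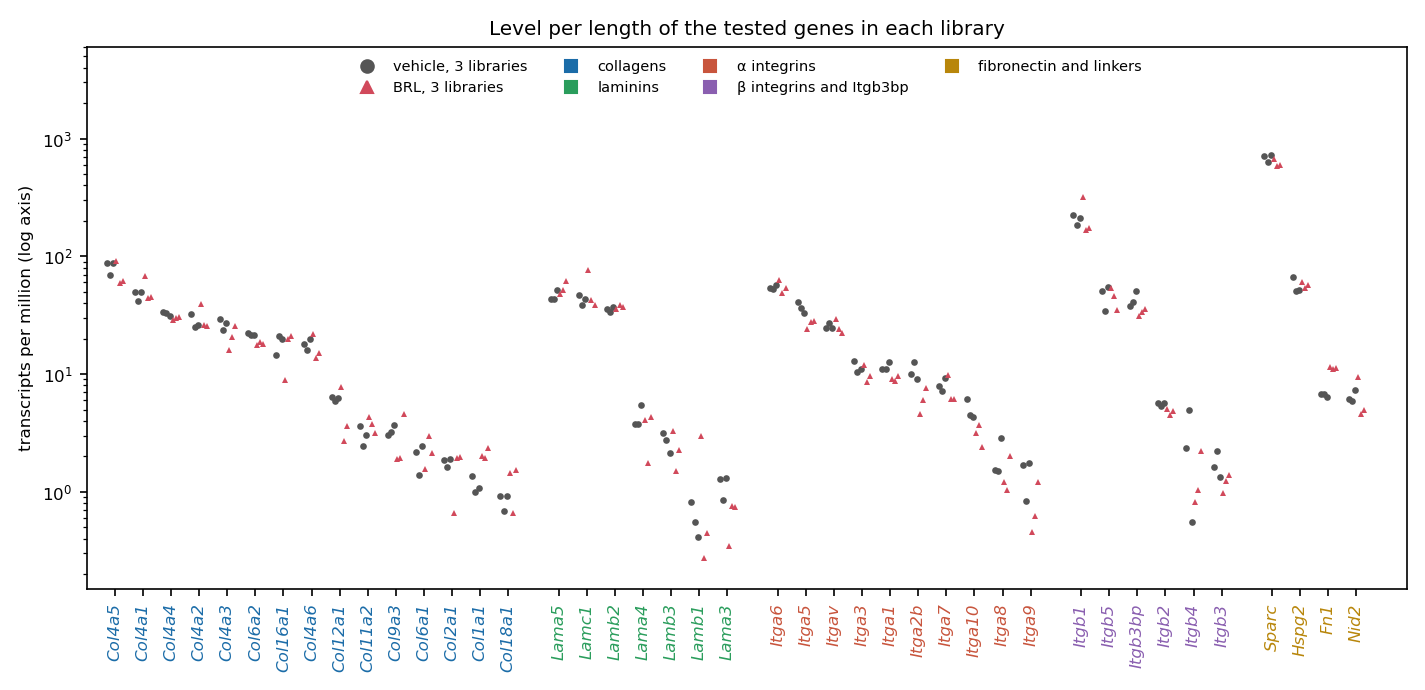
Level per length, in TPM on a log axis, of the tested genes described here in each library; circles are the 3 vehicle and triangles the 3 BRL libraries, and genes are ordered by mean level within a family. Sparc and Itgb1 stand above the rest, and the collagen IV chains lead the collagens.

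Levels of different genes were compared as TPM, an abundance that divides by transcript length, over all 6 libraries. Sparc, a secreted protein that binds collagen, was the most abundant of the 43, with a lowest, median and highest level of 583, 656 and 719 TPM. Itgb1, the β subunit shared by most integrins, followed with 169, 197 and 320 TPM (319.5 in BRL replicate 1). The ranges of these genes did not overlap with each other or with that of any other tested gene of the set.

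Collagen transcripts were mainly those of basement membrane chains. The 6 chains of collagen IV summed to 234 ± 21.7 TPM in vehicle and 221 ± 39.2 TPM in BRL (SD, n = 3 each). The 11 fibrillar chains together reached 6.96 ± 0.688 TPM in vehicle and 8.03 ± 0.487 TPM in BRL. Of the fibrillar chains Col11a2, Col2a1 and Col1a1 passed the filter on low counts, with medians of 3.40, 1.87 and 1.65 TPM. Col1a2, which joins Col1a1 in collagen I, had 1 count in BRL replicate 1 and none elsewhere, and Col3a1 had at most 4 counts in a library. Col5a1, Col11a1 and Col24a1 had no counts in any library. The Col1a1 reads were therefore not matched by reads of its partner chain at this depth. Per length Col1a1 measured 1.15 ± 0.193 TPM in vehicle and 2.10 ± 0.221 in BRL, while its TMM-scaled counts were 3.96 ± 0.521 and 2.92 ± 0.605 CPM. The direction of its difference thus changed with the scale, and it was not called.

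Collagen IV assembles from defined sets of chains, and its genes lie in head-to-head couples that are known for shared promoter regions. Col4a5 had the highest level of the collagens, with 59.5, 78.8 and 91.3 TPM as lowest, median and highest. Col4a1 came next with 41.6, 47.3 and 68.6 TPM, and its range overlapped that of Col4a5. Col4a4 had a median of 30.8, Col4a2 of 26.1, Col4a3 of 24.7 and Col4a6 of 17.1 TPM, and each of these ranges overlapped that of the next in order. All 6 chains were thus present, including Col4a3 and Col4a4, which are best known from the filtration barrier of the kidney. Outside collagen IV, Col6a2 had a median of 20.1 TPM but its partner chain Col6a1 one of 2.14, and Col6a3, the remaining classical chain of collagen VI, had at most 9 counts in a library. Col16a1 (20.0 TPM) and Col12a1 (6.06 TPM), which attach to collagen fibrils, had the other medians above 5 TPM.

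**Figure D2:**
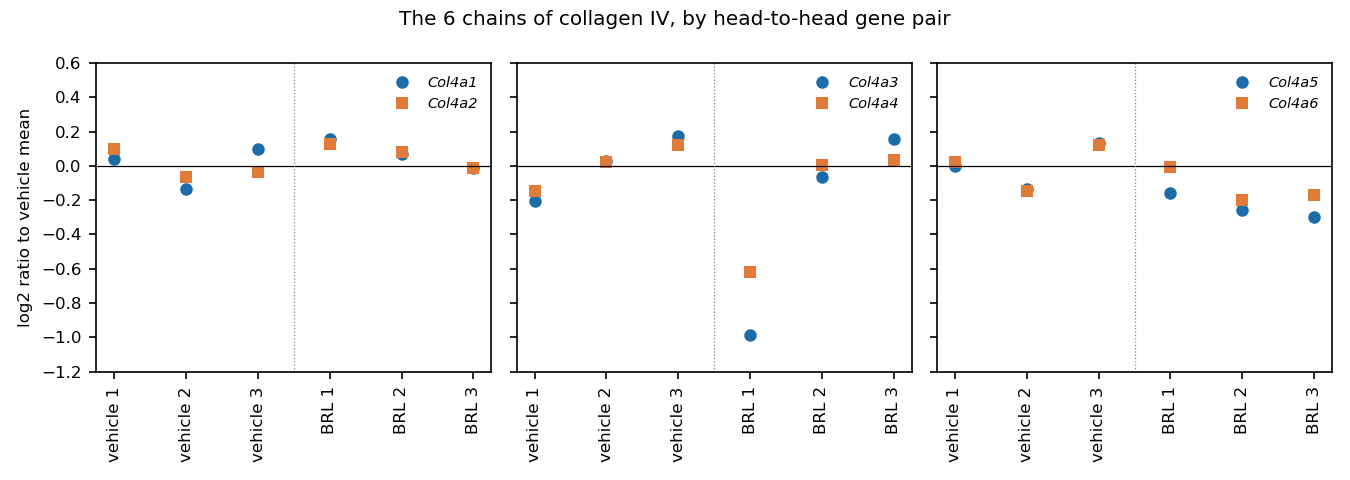
Log2 ratio of each library to the mean of the 3 vehicle libraries for the 6 collagen IV genes, grouped by head-to-head couple; each symbol is 1 library. Col4a3 and Col4a4 stand at −0.99 and −0.62 in BRL replicate 1, while Col4a1 and Col4a2 stand at 0.16 and 0.13.

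Col4a3 and Col4a4 took similar positions across libraries. Col4a3 measured 115, 136 and 149.6 CPM in the vehicle libraries and 66.7, 127 and 148 CPM in BRL replicates 1, 2 and 3. Col4a4 measured 125, 141 and 151 CPM in vehicle and 90.1, 139 and 142 CPM with BRL. In both genes BRL replicate 1 was the lowest library, and the other BRL libraries lay within the vehicle range. Col4a1 and Col4a2 overlapped between the groups, at 202 ± 16.5 and 114 ± 6.86 CPM in vehicle and 212 ± 12.6 and 119 ± 5.95 CPM with BRL. Exons of Col4a1 and Col4a2 overlap each other in the annotation, and no source used here says whether reads were counted by strand. Col4a5 measured 280, 255 and 306.5 CPM in vehicle and 250.3, 234 and 227 CPM with BRL, where every BRL library lay below every vehicle library. Its neighbour Col4a6 measured 72.3 ± 6.66 CPM in vehicle and 66.2 ± 4.82 CPM with BRL, and the groups overlapped.

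The sequences upstream of Col4a5 and Col4a6 are shown because this couple holds the most abundant collagen gene of the set, and that of Itgb1 because it is the most abundant integrin gene. They are RefSeq windows of build GRCm38.p6, another build than that of the counts, cut where annotated transcription begins, and read 5′ to 3′ on the strand of the gene. Capitals mark the core of the cyclic AMP response element, TGACG or its reverse complement. The windows are chrX:141475169-141475369 on the plus strand, chrX:141474096-141474326 on the minus strand and chr8:128685404-128685653 on the plus strand.
Col4a5: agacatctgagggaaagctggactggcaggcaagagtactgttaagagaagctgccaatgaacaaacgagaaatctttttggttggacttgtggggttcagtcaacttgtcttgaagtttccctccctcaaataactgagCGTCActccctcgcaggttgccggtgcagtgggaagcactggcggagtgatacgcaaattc
Col4a6: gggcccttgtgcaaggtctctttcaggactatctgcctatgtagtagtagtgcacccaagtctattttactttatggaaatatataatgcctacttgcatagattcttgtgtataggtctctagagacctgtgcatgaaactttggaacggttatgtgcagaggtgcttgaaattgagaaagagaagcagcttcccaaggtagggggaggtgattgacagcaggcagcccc
Itgb1: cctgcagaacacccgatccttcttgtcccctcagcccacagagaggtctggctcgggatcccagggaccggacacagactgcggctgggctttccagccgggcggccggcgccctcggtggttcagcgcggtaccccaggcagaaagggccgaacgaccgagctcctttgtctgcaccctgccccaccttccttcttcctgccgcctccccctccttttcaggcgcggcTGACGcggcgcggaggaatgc
The windows differ in base composition, with 68.0% G and C and 21 CG dinucleotides in the 250 bases before Itgb1 against 49.8% and 6 in the 201 bases of Col4a5 and 45.5% and 1 in the 231 bases of Col4a6.

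Motifs were searched in the full 250 bases before the start of each gene, without the cut made for printing, and such windows were at hand for 27 of the 43 tested genes. The core TGACG, searched on both strands, was in those of Col4a5, Itgb1, Col11a2, Itga9 and Lama5, which is 18.5% of the 27 against 19.8% of 27025 genes in the table. The full element TGACGTCA, which contains the core, was in none of the 27 and in 1.77% of all genes. The AP-1 site TGANTCA was in that of Col6a1, 3.70% of the 27 against 7.82% of all genes. A match is a description of letters and not of a bound site.

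Laminins are trimers of an α, a β and a γ chain. Lama5, Lamc1 and Lamb2 had medians of 49.9, 43.2 and 36.5 TPM. The ranges of Lama5 and Lamc1 overlapped, and the highest library of Lamb2 (38.71 TPM) lay just below the lowest of Lamc1 (38.74 TPM). Lama4 was at 3.92 TPM, and its highest library (5.46 TPM) lay below the lowest library of Lamb2 (33.8 TPM). Lamb3 (2.51 TPM), Lama3 (0.809 TPM) and Lamb1 (0.502 TPM) were lower still. Lama2, the α chain of the main laminin of adult muscle, had at most 3 counts in a library, Lama1 at most 1 and Lamc3 at most 5. Of the linkers between the networks, Hspg2, which encodes perlecan, had a median of 55.5 TPM and Nid2 one of 6.03 TPM. Nid1 had a single count in vehicle replicate 3, and Vtn, which encodes vitronectin, a single count in vehicle replicate 2.

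Among α integrins Itga6, the subunit of laminin receptors, led with 49.0, 53.7 and 63.2 TPM. Its counts were not whole numbers, since RSEM splits reads that fit several loci, and it had 0.825 CPM per TPM where Itga5 had 2.80, so the transcripts to which its reads were assigned were shorter. Itga5, which binds fibronectin together with Itgb1, had a median of 30.5 TPM and Itgav, a further receptor subunit for the RGD motif, 24.7 TPM. Their ranges overlapped, and both lay above Itga3 (10.7 TPM), Itga1 (10.3 TPM) and Itga7 (7.61 TPM), the last of which is the laminin receptor subunit of striated muscle. Itga10, a collagen receptor subunit of cartilage, had 2.39 to 6.12 TPM and Itga8 and Itga9 had 1.53 and 1.03 TPM. Itga2b, known from platelets, had 8.39 TPM from only 0.627 CPM per TPM. After Itgb1 the β subunits were Itgb5 (48.3 TPM), Itgb2 (5.19 TPM), Itgb4 (1.64 TPM) and Itgb3 (1.37 TPM). Itgb2 pairs in leukocytes with Itgal, Itgam, Itgax and Itgad, which had at most 5, 1, 1.44 and 11 counts in a library, and Ptprc, the common leukocyte antigen, had none. Ptprc belongs to a fixed list of 10 leukocyte markers, of which 1 was tested. Adgre1, Csf1r, Tyrobp, Lyz2 and C1qa also had no counts, while Cd68, Cd3e and Fcer1g had the most. The list summed to 2.92 to 4.20 CPM in vehicle and 2.38 to 4.89 CPM with BRL.

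The genes that were not tested numbered 47. Of these 29 were collagens, 3 laminins, 8 α integrins, 5 from the β integrin family and 2 linkers. In all libraries 8 had no counts, namely Col5a1, Col9a1, Col10a1, Col11a1, Col24a1, Itga2, Itgb2l and Itgbl1. In 28, these 8 included, no library exceeded 3 counts. The other 20 of these were Col1a2, Col5a2, Col6a4, Col6a5, Col9a2, Col14a1, Col15a1, Col17a1, Col19a1, Col22a1, Col25a1, Col28a1, Itga4, Itgam, Itgax, Itgb8, Lama1, Lama2, Nid1 and Vtn. Between 4 and 13 counts were reached by Col3a1, Col5a3, Col6a3, Col6a6, Col7a1, Col8a1, Col8a2, Col13a1, Col20a1, Col23a1, Col26a1, Col27a1, Itga11, Itgad, Itgae, Itgal, Itgb6, Itgb7 and Lamc3. The largest count among the 47 was 13, for Col27a1 in vehicle replicate 3. In 45 of the 47 the groups overlapped, and the share over the other genes under the filter was not computed. Every BRL library lay below every vehicle library for Col27a1 (1.79, 1.68 and 2.64 CPM in vehicle, 0.397, 0.704 and 1.22 CPM with BRL) and Itgad (2.02, 2.31 and 1.42 against 0.529, 0.563 and 1.05 CPM), which are named after their values were seen. These counts were too low for the filter, so no test was made with all 6 libraries, and without BRL replicate 1 Itgad did not pass (edgeR adjusted p = 0.0988).

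The set was then compared between BRL and vehicle. Fn1, the fibronectin gene, rose. It measured 33.4, 36.3 and 33.2 CPM in vehicle replicates 1, 2 and 3 and 45.3, 63.3 and 60.5 CPM in BRL replicates 1, 2 and 3. Every BRL library lay above every vehicle library, and BRL replicate 1 was the lowest of its group. The log2 fold change was 0.72 ± 0.14 (SE), a 1.64-fold rise, and the adjusted p was 0.0410 (edgeR, quasi-likelihood, Benjamini-Hochberg over 12047 genes). In TPM, which carry no TMM factors, the BRL libraries were closer to each other. They measured 11.49, 11.02 and 11.28 TPM, against 6.76, 6.82 and 6.38 TPM in vehicle. Counts of Fn1 were not whole, and an exon of it overlaps another annotated gene. Without vehicle replicate 1, 2 or 3 or BRL replicate 2 or 3 in turn the call was lost, with adjusted p of 0.164, 0.167, 0.221, 0.111 and 0.0909, while without BRL replicate 1 the log2 fold change was 0.86 (adjusted p = 2.3e-05).

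Fn1 was 1 of 43 tested genes called higher, where 1.01% of all tested genes were, and none was called lower, where 1.79% of all were. At an unadjusted p under 0.05, 8 of the 43 were lower, against 10.8% of all genes. DESeq2 called 1 higher and none lower, against 2.01% and 2.91% of all genes, and limma-voom called none, against 0.789% and 1.53%. The exact test of edgeR called 1 higher and 2 lower, Itga10 and Lama4, against 3.47% and 4.37% of all genes. Every BRL library lay below every vehicle library in 14 of the 43, or 32.6%, where 15.5% of all tested genes did so. Every BRL library lay above in 1, against 16.0% of all. The log2 fold change was below 0 in 34 of the 43, against 49.3% of all genes, and its median was −0.23 against 0.005 over all genes.

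**Figure D3:**
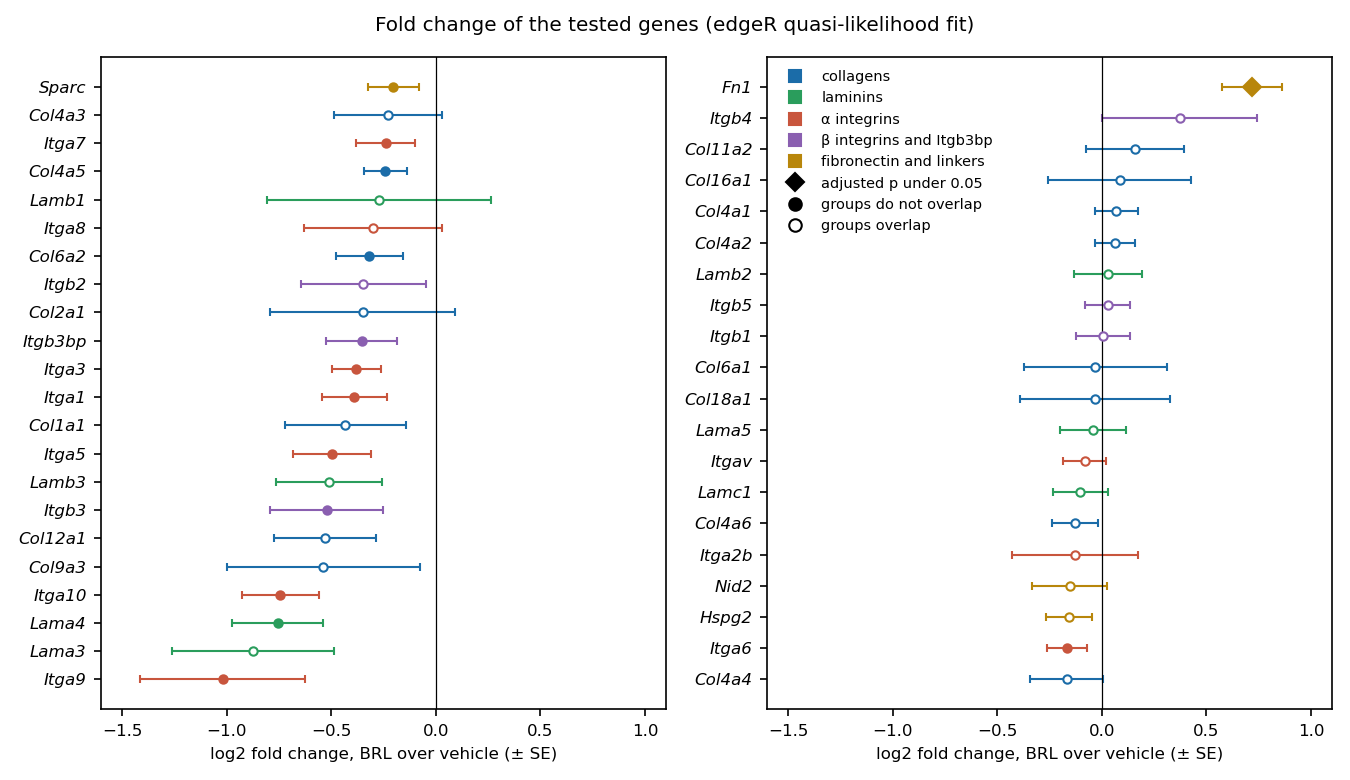
Log2 fold change of BRL over vehicle with its standard error for the tested genes described here, split over both panels by rank; colours give the family, filled symbols mean that the groups do not overlap, and the diamond marks the gene past an adjusted p of 0.05. Fn1 at 0.72 is the only diamond, and all 10 α integrins lie below 0.

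Integrin α subunits were 7 of the 14 genes in which every BRL library lay below every vehicle library. All 10 tested had a log2 fold change below 0, with a median of −0.34, and none passed the test. Itga10 measured 17.0, 12.8 and 14.4 CPM in vehicle and 7.94, 10.3 and 8.15 CPM with BRL. The groups did not overlap, and the log2 fold change was −0.74 ± 0.19 (edgeR adjusted p = 0.0723), with counts that were not whole. Itga3, a laminin receptor subunit, measured 38.8, 33.4 and 32.6 CPM in vehicle and 27.9, 25.1 and 27.4 CPM with BRL. Its BRL libraries lay close together below the vehicle libraries (log2 fold change −0.38 ± 0.12, edgeR adjusted p = 0.109). Itga5 measured 112, 106 and 94.9 CPM in vehicle and 51.8, 87.0 and 83.1 CPM with BRL, with BRL replicate 1 far below the others (−0.49 ± 0.19, edgeR adjusted p = 0.173). Itga1, a collagen receptor subunit, measured 44.2 ± 4.36 CPM in vehicle and 33.8 ± 6.16 CPM with BRL (edgeR adjusted p = 0.187). Itga9 had the most negative value of the 43 (−1.02 ± 0.39, edgeR adjusted p = 0.180) at 4.29 ± 1.73 and 2.09 ± 0.697 CPM. Itga6 and Itga7 were the other α subunits without overlap, at 47.7 ± 0.911 and 21.26 ± 2.66 CPM in vehicle and 42.4 ± 2.39 and 18.02 ± 1.32 CPM with BRL. Itgav, Itga8 and Itga2b overlapped between the groups, with 70.6 ± 5.25, 5.11 ± 1.099 and 5.14 ± 0.565 CPM in vehicle and 66.7 ± 4.37, 4.13 ± 1.38 and 4.68 ± 1.53 CPM with BRL.

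The 6 tested genes of the β family had a median log2 fold change of −0.17, and none passed the test. Itgb1 measured 509.7, 449 and 519.7 CPM in vehicle and 581, 456.5 and 448 CPM with BRL. BRL replicate 1 was the highest of the 6 libraries and BRL replicate 3 the lowest, and the log2 fold change was 0.01 ± 0.13 (edgeR adjusted p = 0.983). Itgb5 was at 73.2 ± 7.15 CPM in vehicle and 74.6 ± 4.80 CPM with BRL (0.03 ± 0.11, edgeR adjusted p = 0.912). Itgb3, the partner of Itgav and Itga2b, measured 5.10 ± 0.713 and 3.54 ± 0.667 CPM without overlap (edgeR adjusted p = 0.291). Itgb2 measured 10.1, 8.81 and 10.1 CPM in vehicle and 4.24, 9.29 and 9.29 CPM with BRL, where BRL replicate 1 alone lay below the vehicle range. Itgb4, the partner of Itga6 in hemidesmosomes, had 2.85 ± 0.692 and 3.68 ± 1.24 CPM, with counts that were not whole. The centromere gene Itgb3bp measured 25.1 ± 2.36 and 19.7 ± 3.87 CPM (edgeR adjusted p = 0.257).

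**Figure D4:**
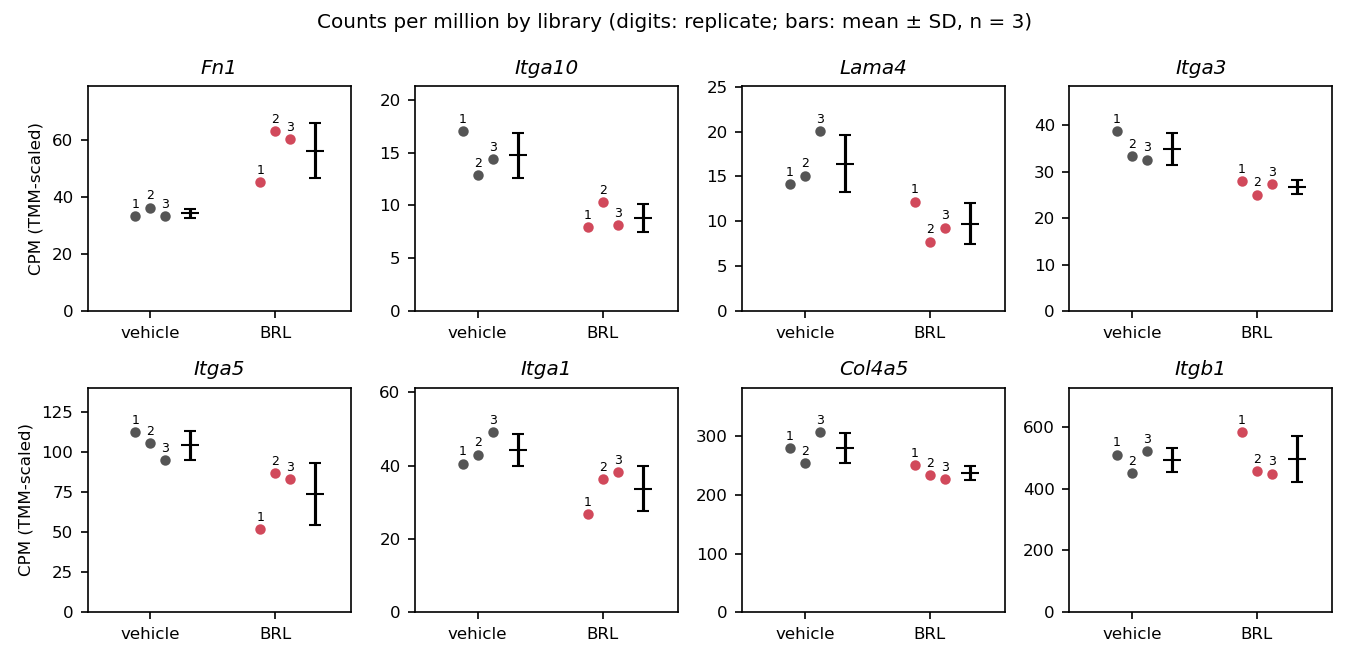
CPM by library for Fn1, 6 genes whose BRL libraries all lie below the vehicle libraries, and Itgb1; points are libraries with their replicate number, and the bars give the mean and SD of 3. Fn1 is higher in BRL, and Itgb1 overlaps, with BRL replicate 1 at 581 CPM.

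Among laminins Lama4, the α chain found around vessels and muscle, measured 14.1, 15.1 and 20.1 CPM in vehicle and 12.2, 7.74 and 9.29 CPM with BRL. The groups did not overlap, and the log2 fold change was −0.76 ± 0.22 (edgeR adjusted p = 0.0992). Lama3 and Lamb3 overlapped between the groups, with log2 fold changes of −0.87 ± 0.39 and −0.51 ± 0.25 (edgeR adjusted p of 0.228 and 0.275). Lama5, Lamc1 and Lamb2 lay nearer to 0. Lama5 measured 177 ± 14.5 and 172 ± 35.8 CPM, Lamc1 176 ± 10.2 and 164 ± 28.1 CPM, and Lamb2 130.2 ± 6.27 and 133 ± 30.0 CPM, in vehicle and BRL in that order. BRL replicate 1 was the lowest library of all 6 for Lama5 and Lamb2 (131 and 99.3 CPM) and the highest for Lamc1 (196 CPM). Lamb1 was near the floor, at 1.92 ± 0.440 and 1.58 ± 1.16 CPM.

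Of the 15 tested collagens none passed. In 2 every BRL library lay below every vehicle library, where 15.5% of all tested genes did so. These were Col4a5 (log2 fold change −0.24 ± 0.10, edgeR adjusted p = 0.216) and Col6a2, which measured 57.6 ± 1.24 CPM in vehicle and 46.2 ± 10.5 CPM with BRL (−0.32 ± 0.16, edgeR adjusted p = 0.287). Col12a1 measured 31.2, 28.5 and 27.6 CPM in vehicle and 28.2, 13.1 and 19.1 CPM with BRL, so that BRL replicate 1 lay within the vehicle range and the other BRL libraries below it. Col16a1 went the other way in those libraries, with 30.7, 29.2 and 31.6 CPM in vehicle and 14.3, 42.4 and 40.4 CPM in BRL replicates 1, 2 and 3. BRL replicate 1 was thus the lowest of the 6 libraries for Col16a1 and the other BRL libraries the highest (0.09 ± 0.34, edgeR adjusted p = 0.909). The remaining collagens, Col11a2, Col9a3, Col6a1, Col2a1 and Col18a1, had at most 15.1 CPM in any library and overlapped between the groups. Of the linkers, Sparc measured 940, 888 and 994 CPM in vehicle and 704, 886 and 860.4 CPM with BRL (−0.20 ± 0.12, edgeR adjusted p = 0.363), with counts that were not whole. BRL replicate 2 lay only just below the lowest vehicle library for Sparc. Hspg2 measured 332 ± 12.5 and 297 ± 32.9 CPM (edgeR adjusted p = 0.431) and Nid2 20.6 ± 2.76 and 18.5 ± 3.72 CPM (edgeR adjusted p = 0.654), with overlap in both.

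**Figure D5:**
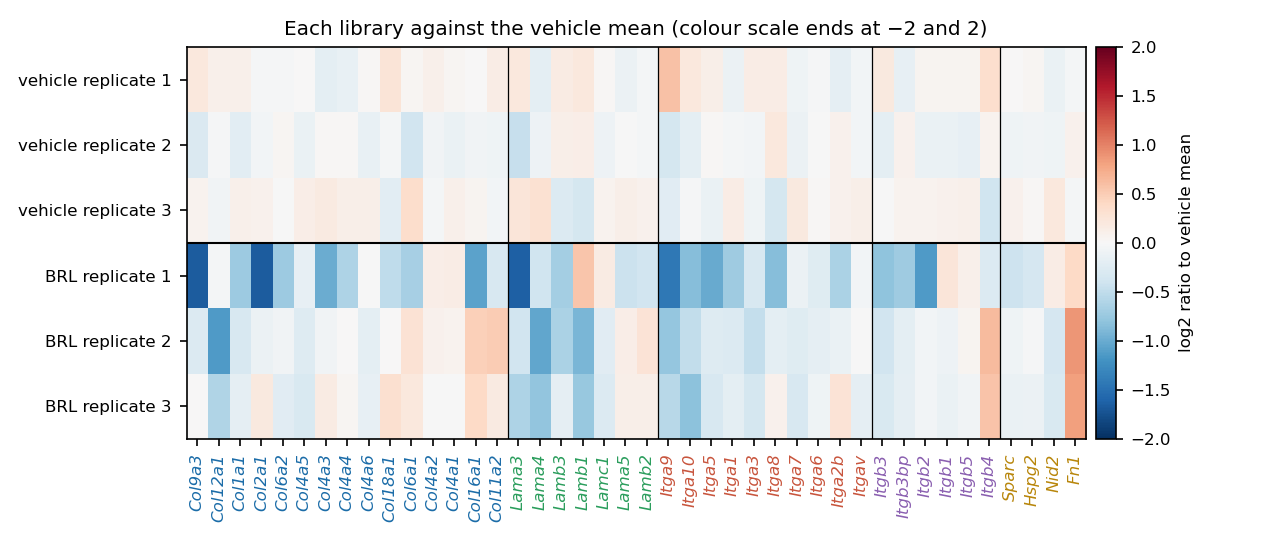
Log2 ratio of each library to the mean of the 3 vehicle libraries for the tested genes described here, by family; red is above and blue below that mean, and the colour scale ends at −2 and 2. BRL replicate 1 is the bluest row, with a median of −0.42 over all 43 tested genes, and Fn1 is above the vehicle mean in every BRL library.

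BRL replicate 1 had the lowest median of the set, though it was the highest library for some genes, Itgb1, Lamc1, Col4a1 and Col4a2 among them. Its median over the 43 genes was −0.42 on the log2 scale relative to the vehicle mean, against −0.17 and −0.13 in BRL replicates 2 and 3. For collagens these medians were −0.62, −0.07 and 0.01, for α integrins −0.68, −0.25 and −0.26, and for laminins −0.40, −0.38 and −0.33. With that library left out the 43 genes had a median of −0.12, and the test called 2 genes higher, where 10.3% of all were, and 8 lower of 44 tested, or 18.2%, where 10.9% of all were. Those higher were Fn1 and Col16a1 (log2 fold change 0.44, edgeR adjusted p = 0.00510). Among those lower were Lama4 (−0.94), Col12a1 (−0.84), Itga10 (−0.67), Itga3 (−0.40), Itga5 (−0.29), Col4a5 (−0.28) and Lamc1 (−0.25), with edgeR adjusted p between 0.00200 and 0.0289. In that comparison every BRL library lay below every vehicle library in 19 of the 43, against 25.1% of all genes, and above in 5, against 24.9%.

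Most of these genes have long transcripts. Of the 43, 27 lay in the longest of 5 equal length classes of all tested genes, ranked by CPM per TPM. The median log2 fold change of all genes was 0.10 in the shortest class and −0.05 in the longest, and every BRL library lay below in 8.59% and 21.2% of genes in these classes. In BRL replicates 1, 2 and 3 the median of the longest class was 0.06, −0.17 and −0.10 relative to the vehicle mean. The 27 genes of the set in that class had a median of −0.24, and in 10 every BRL library lay below. The part of transcript length and of sequencing depth in the lower values was not tested.

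Other genes of the matrix and of adhesion were read from 5 lists, chosen by function, and their counts stand against 1.01% of all tested genes called higher and 1.79% called lower. Of 17 tested proteases and inhibitors 2 rose and 2 fell. Adamts5 and Adam10 fell; the former cleaves aggrecan and versican and measured 52.5, 48.3 and 49.7 CPM in vehicle and 24.2, 25.6 and 32.5 CPM with BRL, without overlap (log2 fold change −0.87 ± 0.13, edgeR adjusted p = 0.0146). Adam10, which sheds membrane proteins, measured 143, 122 and 143 CPM in vehicle and 105, 85.2 and 84.9 CPM with BRL (−0.57 ± 0.12, edgeR adjusted p = 0.0498). Its call was lost with DESeq2 size factors, with TMM factors computed without mitochondrially encoded genes, without scaling and with limma-voom. Adamts1 rose, from 14.8, 14.9 and 15.8 CPM to 32.03, 26.3 and 23.8 CPM (0.85 ± 0.15, edgeR adjusted p = 0.0256). Adamts9 rose from 42.2, 44.6 and 39.7 CPM to 83.9, 61.2 and 61.1 CPM (0.70 ± 0.15, edgeR adjusted p = 0.0453), with counts that were not whole. The protease genes called thus split by direction within the ADAMTS family.

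Of 30 tested focal adhesion genes, which link integrins to actin, 2 fell and none rose. Tln2, a talin that binds the tails of β integrins and is prominent in striated muscle, measured 19.1, 19.1 and 17.5 CPM in vehicle and 12.3, 10.7 and 11.3 CPM with BRL. It fell by 0.70 on the log2 scale, and the groups did not overlap (edgeR adjusted p = 0.0406), with counts that were not whole. The median log2 fold change of this list was −0.18, and in 13 of its 30 genes every BRL library lay below, against 15.5% of all tested genes. Of 16 tested matrix receptors other than integrins, Dmd, which encodes dystrophin, fell from 46.9, 42.8 and 48.9 CPM to 31.6, 24.1 and 29.7 CPM (−0.70 ± 0.13, edgeR adjusted p = 0.0331). The heparan sulphate proteoglycan Sdc1 rose from 59.9, 58.5 and 60.2 CPM to 96.9, 82.4 and 78.0 CPM (0.53 ± 0.11, edgeR adjusted p = 0.0469). Of 20 tested matricellular, elastic fibre and proteoglycan genes 1 rose and none fell. This was Fbn2, a fibrillin of elastic microfibrils, which measured 6.28, 4.20 and 6.89 CPM in vehicle and 19.2, 14.5 and 11.2 CPM with BRL (1.37 ± 0.27, edgeR adjusted p = 0.0385). None of 24 tested genes for collagen folding, modification and crosslinking passed. At an unadjusted p under 0.05, 1 was higher and 1 lower, against 11.6% and 10.8% of all tested genes. The smallest p belonged to Ppib, a prolyl isomerase of the endoplasmic reticulum (0.37 ± 0.10, edgeR adjusted p = 0.0922). DESeq2, limma-voom and edgeR's exact test called 0 of the 24 genes.

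The median log2 fold changes of these lists were 0.06 for collagen folding, −0.05 for proteases and inhibitors, −0.11 for matricellular genes, −0.19 for the other receptors and −0.18 for focal adhesions, against 0.005 over all tested genes. Calls over all tested genes also shifted widely with the library left out, over a range given below, so the list counts that follow are not particular to these lists. When vehicle replicate 1, 2 or 3 was left out, edgeR called 0 genes of the 5 lists, and when BRL replicate 2 was left out it called 1, a focal adhesion gene. Without BRL replicate 3 it called Adamts1, Adamts5, Fbn2 and 1 focal adhesion gene. Without BRL replicate 1, where 10.3% of all genes were called higher and 10.9% lower, it called 4 of 24 folding genes higher and 0 lower, 3 proteases and inhibitors higher and 5 lower, and 3 matricellular genes higher and 2 lower. In that comparison 3 other receptors were higher and 7 lower, and 2 focal adhesion genes were higher and 11 lower, Vcl (vinculin) and Tln1 among the last. The calls of Adamts9, Fbn2 and Sdc1 were also lost with limma-voom, and without scaling so were these and those of Adamts1, Dmd and Tln2.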

How the data were processed

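RNA-seq of 6 HL-1 libraries was analysed. Per the submitters' processing notes the authors used cutadapt, Bowtie, RSEM 1.17 and edgeR with genome build NCBIM37; no source used here gives read length, strand or other settings. The deposited files hold, per gene, RSEM expected counts and a fraction of transcripts, which was multiplied into TPM. Expected counts were rounded to whole numbers. The main test was the quasi-likelihood test of edgeR 4.0.16 (R 4.3.3) with group as the only term, genes kept by filterByExpr with a minimum count of 10, TMM scaling and Benjamini-Hochberg adjustment over all 12047 kept genes at 0.05. It was tested on simulated counts. CPM are TMM-scaled. TPM served to compare levels between genes. The exact test of edgeR, DESeq2 1.42.0 and limma-voom (limma 3.58.1) were among the alternatives, as were other scalings and filters and leaving out each library.

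Symbols came from a GRCm38 annotation and matched 88.4% of all genes and 96.9% of tested genes; a count is called not whole when it is more than 0.005 from a whole number. Promoter windows are from RefSeq. The members and the gene lists were chosen with earlier results of these data known. Genes were named by smallest p, as the most abundant of each family or as list genes past the threshold, with values by library or as mean ± SD. The labels do not say whether the same replicate number in both groups marks a pair. Correlations of deviations between same-numbered libraries were 0.102, −0.021 and −0.018, which cannot settle this with 3 libraries per group. The floor of 3 counts and the Wilson intervals cover counting error only. Results of some genes are not reported here; counts and medians cover all tested genes.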

Additional observations from a re-analysis of the deposited data

How the results depend on the processing

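Over 16 alternatives the log2 fold change of Fn1 stayed between 0.63 and 0.86, and it passed the threshold in 10, with adjusted p from 2.3e-05 to 0.221 (edgeR, DESeq2 and limma). limma-voom called 0 matrix and integrin genes higher (Fn1 adjusted p = 0.0568), and the exact test called 2 lower. When 1 library was left out, the calls among these genes ranged from 0 to 2 higher and from 0 to 8 lower, and those over all genes from 17 to 1240 higher and from 15 to 1315 lower. The highest of these came without BRL replicate 1, where every BRL library lay above in 5 genes and below in 19. The median of the matrix and integrin genes ranged from −0.26 to −0.12. Over all genes 122 were called higher, against 77 without scaling, 282 without a filter, 242 with DESeq2, 418 with the exact test and 63 with a replicate block. Those lower numbered 216, against 330 without a filter, 350 with DESeq2 and 527 with the exact test. The cause of these shifts was not tested. With the replicate block 150 genes were lower, and the matrix and integrin genes had 1 call higher and 0 lower; not every library correlated best with its own number.

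Of 590 values of 37 single genes under the alternatives, 498 kept direction and side of the threshold, 69 lost and 11 gained a call, and 12 changed sign. Itgb1 was −0.0139 with the stricter filter, −0.0007 with limma-voom and −0.0005 with the replicate block. When 1 library was left out, Itgb1 ranged from −0.1188 (without BRL replicate 1) to 0.0751, Itgb5 from −0.0489 (without vehicle replicate 2) to 0.0833, Lama5 from −0.135 to 0.1256 (without BRL replicate 1), Lamb2 from −0.1103 (without BRL replicate 2) to 0.2027 and Col4a4 from −0.2791 to 0.0193 (without BRL replicate 1). None of these sign changes was in a called value. Depth limits statements on the 47 genes that were not tested.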

Other observations

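Targets and ligands of TGF-β signalling in fibroblast activation formed a further list, of which 11 of 15 genes were tested. Tgfb3, a ligand, fell. It measured 41.0, 45.3 and 40.7 CPM in vehicle and 8.34, 21.1 and 18.1 CPM in BRL, without overlap, and BRL replicate 1 was the lowest (log2 fold change −1.42 ± 0.28, edgeR adjusted p = 0.0379). Exons of Tgfb3 overlap another annotated gene. The call was lost when any vehicle library or BRL replicate 3 was left out. Acta2, smooth muscle actin, measured 2463, 2813 and 2676 CPM in vehicle and 1032, 1871 and 2129 CPM in BRL, also without overlap. It did not pass the main test (edgeR adjusted p = 0.164), nor limma-voom or the exact test. DESeq2 called Acta2 lower, and so did edgeR without BRL replicate 1 (edgeR adjusted p = 0.00549), where 10.9% of all genes were called lower. The median log2 fold change of the list was −0.54 against 0.005 over all genes, and −0.19 without BRL replicate 1. Relative to the vehicle mean its medians in BRL replicates 1, 2 and 3 were −0.81, −0.21 and −0.25. Of the 11 genes, 4 had a log2 fold change above 0. Every BRL library lay above in 2, Smad7 (0.76 ± 0.25, edgeR adjusted p = 0.127) and Bhlhe40, against 16.0% of all tested genes. Every BRL library lay below in 5, against 15.5%.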
